A study of Mus musculus with 6 samples.

Results

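Collagens are the trimeric proteins that form the fibrils and sheets of the extracellular matrix, and 42 genes for collagen chains were examined in cortical cells from mouse embryos exposed to phenobarbital in the womb. Members were all non-control probes whose accession led, through the RefSeq gene table (GRCm38.p6, used for names), to a symbol made of Col, a number, the letter a and a number. They comprised 61 of 55681 probes and 42 of 37208 names, where a probe that led to no symbol kept its own identifier as its name. A further 2 collagen symbols of the RefSeq table, Col6a3 and Col12a1, had no probe matched by accession and were not analysed here. The members were 11 fibrillar, 9 basement membrane and 22 other collagens. Of these 42 genes, 32 had a signal well above background on all 3 arrays of one group or of both and were tested: 10 fibrillar, 8 basement membrane and 14 other.

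In the phenobarbital group, C57BL/6N dams were injected with phenobarbital in saline at 80 mg/kg, drawn from a stock of 8 mg/mL. In the control group, C57BL/6N dams were injected with saline alone. In both, injections were given 6 h apart on embryonic days 10 to 11, and cortex was taken at embryonic day 12 by the protocol (E12.5 in the sample labels). The cortical tissue was dissociated mechanically and plated on polyornithine and fibronectin, and RNA was isolated 4 h later from the whole plated population, which the labels call neural progenitor cells and for which no sort is described. Each group held 3 single-colour Agilent arrays. The labels name no litter or culture per replicate, so p-values measure only how far these samples spread, and that spread may be technical.

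Each collagen molecule winds 3 chains into a triple helix, and the chains are fixed in that shape by hydroxylases and a dedicated chaperone in the endoplasmic reticulum before they are cut, assembled and crosslinked outside the cell. Fibrillar collagens such as types I, III and V form the banded fibres of connective tissue, which in the embryonic head lie in the meninges and vessel walls. Type IV collagen forms the sheet of every basement membrane, including the pial one to which radial glia attach their end feet, and collagen III is a ligand of the receptor Adgrg1 (GPR56) on cortical progenitors in the mouse.

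The start regions of 5 chain genes are shown because these genes make up the main contrasts of the data: Col1a2 and Col3a1 for the chains that fell, Col27a1 for a fibrillar chain that rose, and Col4a1 with Col4a2 for a head-to-head pair that the test did not call. They are from RefSeq (GRCm38.p6) and run 5′ to 3′ on the gene's strand, from 250 bases before the start to 50 after it. Capitals mark the motif CCAAT, the sequence of many promoters' CAAT box. They also mark the TATA motif TATAAA. The last motif marked is the Sp1-type GC box GGGCGG. All 3 were searched on both strands, and no matches overlap here. Col1a2 lies at chr6:4505368-4505667 (+), Col3a1 at chr1:45311288-45311587 (+), Col27a1 at chr4:63215162-63215461 (+), Col4a1 at chr8:11312777-11313076 (-) and Col4a2 at chr8:11312555-11312854 (+).
Col1a2: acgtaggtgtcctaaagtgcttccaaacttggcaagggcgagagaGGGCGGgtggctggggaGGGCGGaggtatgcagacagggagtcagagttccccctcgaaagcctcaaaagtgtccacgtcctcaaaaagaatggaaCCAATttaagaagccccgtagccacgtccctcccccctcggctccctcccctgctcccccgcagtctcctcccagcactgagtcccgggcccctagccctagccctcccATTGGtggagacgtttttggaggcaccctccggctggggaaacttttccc
Col3a1: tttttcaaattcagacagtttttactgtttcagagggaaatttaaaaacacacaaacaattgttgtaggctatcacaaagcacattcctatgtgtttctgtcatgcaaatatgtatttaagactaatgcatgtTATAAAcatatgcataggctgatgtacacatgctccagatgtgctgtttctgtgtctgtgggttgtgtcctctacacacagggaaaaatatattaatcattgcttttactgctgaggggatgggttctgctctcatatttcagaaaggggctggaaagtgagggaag
Col27a1: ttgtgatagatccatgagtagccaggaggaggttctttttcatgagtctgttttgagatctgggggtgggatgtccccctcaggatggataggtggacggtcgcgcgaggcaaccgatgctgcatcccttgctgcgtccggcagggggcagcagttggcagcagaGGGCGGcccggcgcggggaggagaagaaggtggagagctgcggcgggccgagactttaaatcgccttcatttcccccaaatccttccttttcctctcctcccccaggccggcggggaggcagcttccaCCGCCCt
Col4a1: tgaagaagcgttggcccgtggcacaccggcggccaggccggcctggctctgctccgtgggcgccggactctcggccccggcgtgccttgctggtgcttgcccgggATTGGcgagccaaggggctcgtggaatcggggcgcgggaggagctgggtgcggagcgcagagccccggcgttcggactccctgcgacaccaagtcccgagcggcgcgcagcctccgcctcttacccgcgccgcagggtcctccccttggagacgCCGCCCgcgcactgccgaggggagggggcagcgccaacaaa
Col4a2: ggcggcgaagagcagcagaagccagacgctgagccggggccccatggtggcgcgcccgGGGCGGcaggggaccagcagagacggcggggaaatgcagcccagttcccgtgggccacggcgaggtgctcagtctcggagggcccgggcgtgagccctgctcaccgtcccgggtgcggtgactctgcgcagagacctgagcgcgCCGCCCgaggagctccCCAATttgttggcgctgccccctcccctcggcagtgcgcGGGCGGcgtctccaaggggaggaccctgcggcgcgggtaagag
The windows of Col4a1 and Col4a2, which are read in opposite directions, share 78 bases. CCAAT occurred in the windows of Col1a2, Col4a1 and Col4a2, TATAAA in that of Col3a1, and GGGCGG in all but that of Col3a1. The GC content was 61.0% for Col1a2, 61.7% for Col27a1, 74.0% for Col4a1 and 73.7% for Col4a2, against 37.7% for Col3a1, where the median of all windows was 52.7%. CCAAT was held by 37.4% of the 32851 windows in the table, TATAAA by 13.6% and GGGCGG by 35.7%. Among the 38 windows of the 35 collagen genes listed there, 13 held CCAAT, 5 held TATAAA and 23 held GGGCGG. Col1a2 and Col3a1, which both fell, thus had none of these 3 motifs in common. Col1a1 and Col5a2, the other fibrillar chains that fell, had no window listed and were not compared.

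Signals are given as log2 of the spot's processed signal over the 75th percentile of its array, called the scaled log2 signal, and differences are phenobarbital minus control on that log2 scale with the standard error of the limma fit. The names tested numbered 25304, of which 15181 were gene symbols and the rest identifiers. Across all 25304 names, 17.2% passed an adjusted p of 0.05, with 11.0% lower and 6.26% higher with phenobarbital. The median difference of all these names was -0.17, and the values of the 2 groups did not overlap for 44.6% of them. The difference was below 0 for 68.3% of names, and 36.1% had an unadjusted p below 0.05. The calls were 1583 higher and 2780 lower, but 1600 and 1367 after quantile normalization, 1436 and 1055 with arrays scaled to their median, and 1616 and 1100 with the percentile restricted to probes detected on all 6 arrays. The median of all names was then -0.06, -0.12 and -0.07. Slide 1 carried all 3 phenobarbital arrays together with control replicate 1. The remaining controls, replicates 2 and 3, each had a slide and a scan of their own. All 10 marker genes fixed for neural progenitor cells were above background. Control replicate 1 is therefore the single control array that shares a slide with the phenobarbital arrays, and for the other 2 controls slide and group cannot be told apart.

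Among the fibrillar collagens, both chains of collagen I, the chain of collagen III and 1 chain of collagen V fell with phenobarbital, while Col27a1 rose. Of the 10 tested, 4 fell, 1 rose and 5 did not pass (limma, adjusted p), against 11.0% lower and 6.26% higher over all names. The class median was -0.30, or 0.13 below that of all names. The values of the groups did not overlap for 7 of the 10, against 44.6% of all names.

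Col3a1 encodes the single chain of collagen III, a homotrimer found beside collagen I in distensible tissue. Its scaled log2 signals were 3.37, 3.09 and 3.66 on the phenobarbital arrays, against 4.17, 4.44 and 4.16 on the control arrays. Every phenobarbital array lay below every control array. Col3a1 fell by 0.88 ± 0.17 (SE, n = 3 per group), which is 1.84-fold lower (limma, adjusted p = 0.0249), and the 95% interval of the fold was 1.38 to 2.46.

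Col1a2 and Col1a1 encode the chains of collagen I, the main fibre of connective tissue. Col1a2 had 3.491, 3.234 and 3.502 on the phenobarbital arrays, against 3.966, 3.954 and 4.072 on the control arrays. Col1a1 had 2.25, 2.15 and 2.08 on the phenobarbital arrays, against 2.59, 2.78 and 2.78 on the control arrays. In neither gene did the groups overlap. Col1a2 fell by 0.59 ± 0.12 (1.504-fold lower, limma adjusted p = 0.0250) and Col1a1 by 0.56 ± 0.11 (1.47-fold lower, 0.0248), so the 2 partner chains moved by nearly the same amount.

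Col5a2 encodes a chain of collagen V, which is built into collagen I fibres and limits their width. Its signals were -1.68, -1.84 and -1.95 on the phenobarbital arrays, against -1.12, -1.40 and -1.11 on the control arrays. The groups did not overlap, and Col5a2 fell by 0.62 ± 0.13 (1.53-fold lower, limma adjusted p = 0.0298). In the RefSeq table Col5a2 is the neighbour of Col3a1, with no gene listed between them. The other chains of collagen V had differences of -0.34 ± 0.11 for Col5a1 (adjusted p = 0.0757) and -0.26 ± 0.20 for Col5a3 (0.386). Col5a1 was lower on every phenobarbital array than on any control array without passing the threshold, whereas the groups overlapped for Col5a3.

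Col27a1 encodes a fibrillar chain best known from cartilage, and it went the other way. Its signals were -3.18, -3.66 and -2.92 on the phenobarbital arrays, against -4.56, -4.23 and -4.88 on the control arrays. All 6 arrays were well above background and the groups did not overlap. Col27a1 rose by 1.30 ± 0.24, or 2.47-fold (limma, adjusted p = 0.0221), and the 95% interval of the fold was 1.65 to 3.71. With the normexp background correction the difference was 0.48 and the adjusted p 0.0550.

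The remaining chains of cartilage fibres did not pass. Col2a1, the chain of cartilage collagen II, had a difference of -0.12 ± 0.32 (limma, adjusted p = 0.815), with 2.70 to 3.34 on the phenobarbital arrays and 2.62 to 3.78 on the control arrays. Col11a1 and Col11a2, chains of the cartilage collagen XI, had 0.22 ± 0.24 (0.558) and 0.63 ± 0.20 (0.0695). Only for Col11a2 among these 3 did the groups not overlap. Col24a1, a fibrillar chain of developing bone, was above background on 1 of 3 phenobarbital arrays and 1 of 3 control arrays and was not tested.

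**Figure D1:**
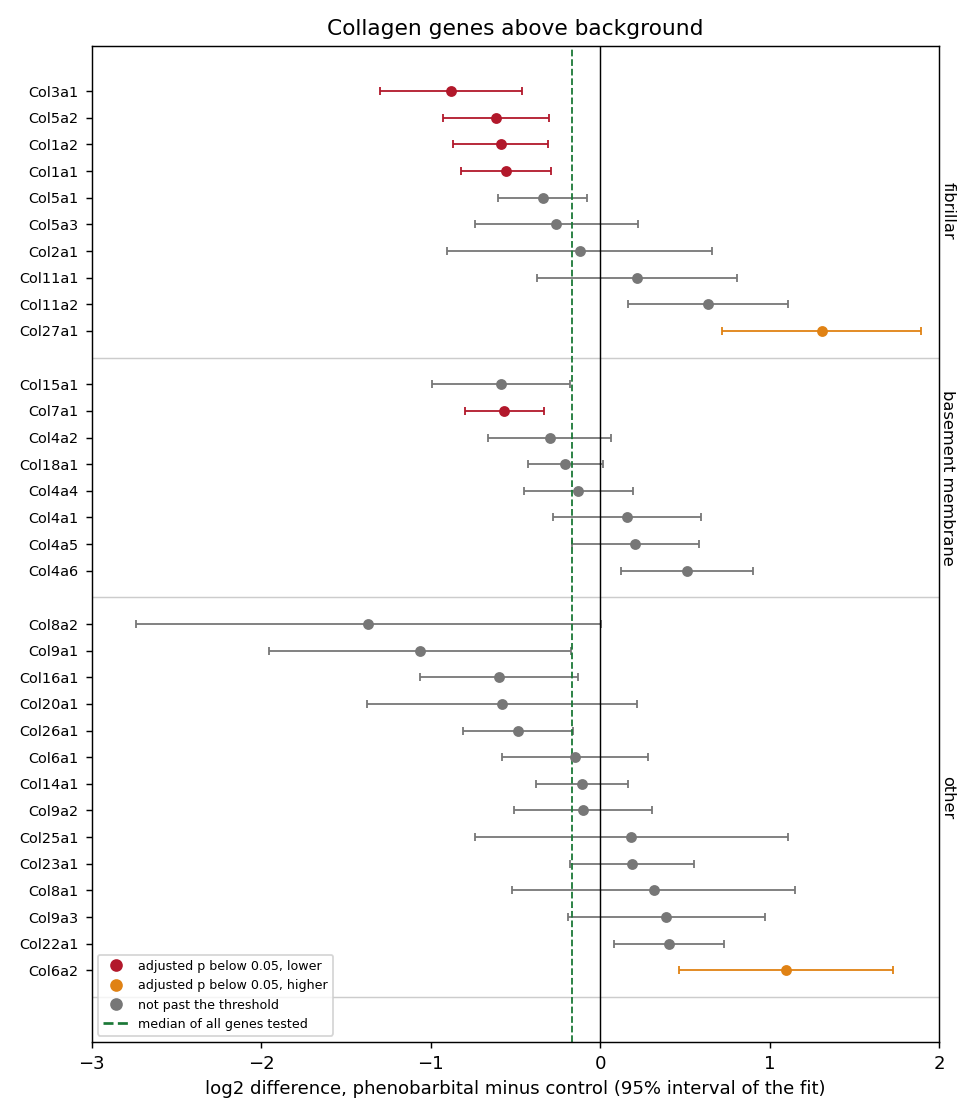
Log2 difference between phenobarbital and control for the 32 tested collagen genes, by class, with the 95% interval of the limma fit, the colour giving the call at an adjusted p of 0.05. Col3a1, Col5a2, Col1a2 and Col1a1 sit at the low end of the fibrillar block with differences of -0.88 to -0.56 and Col27a1 at its high end with 1.30, while the dashed line marks the median of all names at -0.17.

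The 5 fibrillar calls kept their direction in all 21 alternative settings, a direction fixed in advance where groups do not overlap and arrays are only left out. The count of 5 was 0 without control replicate 1, without control replicate 3 or without phenobarbital replicate 1. It was 1 without phenobarbital replicate 2 or 3, and 5 without control replicate 2. Quantile normalization left 2 lower and 2 higher, with Col3a1 and Col1a2 not passing (limma, adjusted p = 0.0844 and 0.0883), and the other 2 scalings left 2 lower and 1 higher each. Within slide 1, where control replicate 1 is the lone control, the differences were -0.80 for Col3a1, -0.56 for Col1a2, -0.43 for Col1a1, -0.71 for Col5a2 and 1.31 for Col27a1, and none passed with the slide as a fixed block (limma, adjusted p from 0.0989 to 0.215). With the slide as a random block all 5 passed (0.0288 to 0.0363).

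Most basement membrane collagens did not pass the test, and their differences lay on both sides of 0. Of 8 tested, Col7a1 alone fell, none rose and 7 did not pass (limma, adjusted p), where 17.2% of all names passed in either direction. The class median was -0.17, the same as over all names to 2 decimals. The values of the groups did not overlap for 5 of the 8, against 44.6% of all names, and 3 had an unadjusted p below 0.05, against 36.1%. That last share is near the one over all names.

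Col4a1 and Col4a2 encode the chains of the type IV trimer found in nearly every basement membrane. Col4a1 had 2.08, 1.57 and 2.22 on the phenobarbital arrays, against 1.87, 1.74 and 1.77 on the control arrays. Phenobarbital replicate 2 was the lowest of all 6 and the other 2 phenobarbital arrays the highest, so the groups overlapped. The difference of Col4a1 was 0.16 ± 0.18, and its 95% interval ran -0.28 to 0.59 (adjusted p = 0.565 by limma).

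Col4a2 had 2.00, 1.53 and 1.99 on the phenobarbital arrays, against 2.15, 2.10 and 2.16 on the control arrays. The phenobarbital values were all lower, and again replicate 2 was the lowest. The difference of Col4a2 was -0.30 ± 0.15, and its 95% interval ran -0.66 to 0.06 (adjusted p = 0.203 by limma).

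The X-linked pair Col4a5 and Col4a6, which form trimers in a subset of basement membranes such as those of smooth muscle, both had positive differences that did not pass. Col4a6 had -0.17, -0.27 and -0.34 on the phenobarbital arrays, against -0.64, -1.09 and -0.57 on the control arrays, with no overlap and a difference of 0.51 ± 0.16 (limma, adjusted p = 0.0741). Its second probe, which had no value for phenobarbital replicate 2, gave 0.16 and overlapped. Col4a5 had a difference of 0.21 ± 0.16 (0.375).

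For Col4a4, a chain of the kidney glomerular basement membrane, the probes disagreed. The brighter probe, with -3.21, -3.51 and -3.42 on the phenobarbital arrays against -3.28, -3.08 and -3.39 on the control arrays, overlapped and gave -0.13 ± 0.13 (limma, adjusted p = 0.517). The dimmer probe had -4.56, -4.89 and -4.23 on the phenobarbital arrays, against -5.52, -6.15 and -5.77 on the control arrays, where only 1 of 3 was well above background. It gave 1.25 and passed when every probe was tested on its own (adjusted p = 0.0208 over all probes, of which 16.2% passed), and its last probe was not above background on any array. No direction can thus be given for Col4a4, and its partner Col4a3 was not above background on any array.

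Col7a1 encodes the chain of anchoring fibrils, which tie the basement membrane of skin to the dermis. Its signals were 1.09, 1.16 and 1.26 on the phenobarbital arrays, against 1.71, 1.76 and 1.74 on the control arrays. The groups were well apart and the control values were tight (SD 0.02). Col7a1 fell by 0.57 ± 0.10 (1.48-fold lower, limma adjusted p = 0.0181), by 0.54 within slide 1 (0.158 with the slide as a fixed block, 0.0245 as a random one), and did not pass without control replicate 1 or 3 or phenobarbital replicate 1 or 2 (0.0539 to 0.0759).

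Col18a1 encodes a basement membrane collagen that carries heparan sulphate chains and releases endostatin. It had 3.21, 3.18 and 3.15 on the phenobarbital arrays, against 3.34, 3.40 and 3.42 on the control arrays. Those groups did not overlap but differed by only -0.21 ± 0.09 (limma, adjusted p = 0.157), close to the median of all names, and its second probe gave -0.10 and overlapped. Col15a1, its closest relative, had a difference of -0.59 ± 0.17 on the brightest of 3 probes (adjusted p = 0.0598), and -0.20 and -0.25 on the others, which overlapped.

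**Figure D2:**
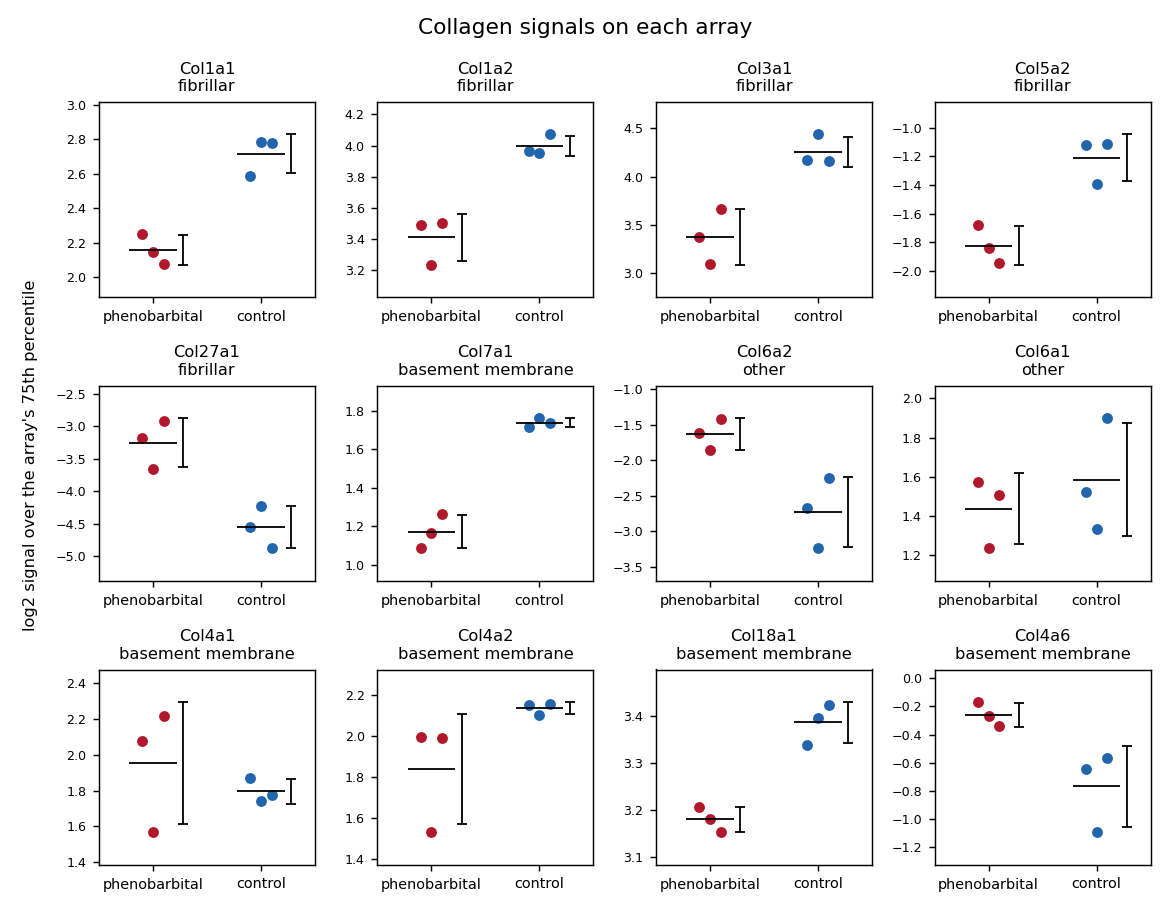
Scaled log2 signal of 12 collagen genes on each array, with phenobarbital left of control; points are arrays, horizontal lines are group means and the bars beside them are 1 SD (n = 3 per group), on axes that do not start at 0. The groups are apart for Col1a1, Col1a2, Col3a1, Col5a2, Col27a1, Col7a1 and Col6a2, whereas for Col4a1 phenobarbital replicate 2 with 1.57 lies below all control arrays and the other 2 phenobarbital arrays above them.

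Of the 14 other collagens tested, Col6a2 rose, none fell and 13 did not pass (limma, adjusted p), against 17.2% of all names in either direction. Their median difference was -0.11, and the groups did not overlap for 6 of the 14, a share near the 44.6% of all names. Differences spread from -1.37 for Col8a2 to 1.09 for Col6a2.

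Col6a1 and Col6a2 encode chains of collagen VI, whose beaded filaments surround cells of muscle, vessels and connective tissue. Col6a2 had -1.62, -1.85 and -1.41 on the phenobarbital arrays, against -2.68, -3.24 and -2.26 on the control arrays. The groups did not overlap, and Col6a2 rose by 1.09 ± 0.26, or 2.13-fold (limma, adjusted p = 0.0385), and the 95% interval of the fold was 1.38 to 3.30. It did not pass after quantile normalization (0.0550). Its difference was 1.05 within slide 1 (0.0794 with the slide as a fixed block, 0.0444 as a random one), and it was not called without control replicate 1 or any 1 of the phenobarbital replicates (0.0855 to 0.111). Col6a1 had 1.572, 1.232 and 1.504 on the phenobarbital arrays, against 1.521, 1.330 and 1.899 on the control arrays. Those values overlapped, with a difference of -0.15 ± 0.18 (adjusted p = 0.587).

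Col6a4, Col6a5 and Col6a6, further chains of collagen VI, were not tested. Col6a4 and Col6a5 were not above background on any array with either of their probes, and Col6a6 was above it on 1 of 3 phenobarbital arrays and 1 of 3 control arrays with its brighter probe.

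Among the fibril-associated collagens, which sit on the surface of fibres, no gene passed. Col9a1, a chain of collagen IX on cartilage fibres, had -4.66, -4.40 and -4.43 on the phenobarbital arrays, against -3.39, -2.68 and -4.23 on the control arrays. The controls spread widely (0.78, SD) with control replicate 3 next to the phenobarbital arrays, and the difference was -1.06 ± 0.37 (limma, adjusted p = 0.0932), or -0.40 on the second probe. Its partners Col9a2 and Col9a3 had -0.10 ± 0.17 and 0.39 ± 0.24, and Col9a3 was above background on 1 of 3 control arrays.

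Col16a1, found in several fibre and basement membrane zones, had a difference of -0.60 ± 0.19 (limma, adjusted p = 0.0786) and -0.33 on its second probe. Col14a1, which binds collagen I fibres, had -0.11 ± 0.11 on its brighter probe. Its dimmer probe had -5.59, -6.07 and -5.48 on the phenobarbital arrays, 2 of them above background, against -4.47, -3.11 and -4.73 on the control arrays. That probe gave -1.61, with no overlap, and did not pass when every probe was tested on its own (adjusted p = 0.0512), though it passed with the second brightest probe standing for each gene (0.0495). Col20a1 and Col22a1 had -0.58 ± 0.33 and 0.40 ± 0.14, of which the groups overlapped for Col20a1. Col19a1 was not above background on any array.

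The short-chain collagen VIII, a product of vessel wall and corneal cells, was dim and scattered. Col8a2 had -4.46, -4.46 and -4.08 on the phenobarbital arrays, against -3.36, -1.60 and -3.93 on the control arrays. Control replicate 2 stood far above the rest, and the difference of -1.37 ± 0.57 did not pass (limma, adjusted p = 0.140). Col8a1 had 0.31 ± 0.35 (0.547). Col10a1, the short chain of hypertrophic cartilage, was above background on 1 control array and no phenobarbital array, and was not tested.

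Of the membrane-bound collagens, Col23a1 and Col25a1 had differences of 0.19 ± 0.15 and 0.18 ± 0.38, and the groups overlapped in both. Col17a1, a chain of skin hemidesmosomes, was above background on 2 of 3 phenobarbital arrays and on no control array, and Col13a1 on 1 of 3 phenobarbital arrays and no control array, so neither was tested. Col26a1 and Col28a1 were listed apart from the membrane-bound collagens. Col26a1 had 2.312, 2.083 and 2.198 on the phenobarbital arrays, against 2.634, 2.518 and 2.899 on the control arrays. The groups did not overlap, but the difference of -0.49 ± 0.14 did not pass (limma, adjusted p = 0.0548). Col28a1 was not above background on any array.

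Chains that assemble with each other were then set side by side, over 9 pairs of the same collagen type chosen with the single-gene results known. The quantity compared was the difference of one chain minus that of the other, taken within arrays. For 7 of the 9 pairs the within-array values of the groups did not overlap (two-sided exact permutation p = 0.1, or 0.129 adjusted over the 9 pairs). With 3 arrays per group 0.1 is the lowest p possible, so the design cannot reach 0.05 for such a value. The share among other pairs of genes was not computed, and among single names 44.6% did not overlap. The count of 7 is therefore not read as a result about partner chains, and 2 of the 9 pairs share Col9a2.

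Collagen I was the evenest pair: the difference of Col1a2 lay -0.03 from that of Col1a1, with overlap (exact permutation p = 0.8, adjusted 0.8). In collagen VI the difference of Col6a2 exceeded that of Col6a1 by 1.24, and by at least 0.96 for any choice of 1 phenobarbital and 1 control array. In collagen IV that of Col4a2 lay 0.46 below that of Col4a1 (-0.46), and by at least 0.31 (-0.31) for any such choice. Both genes start within the bases their printed windows share. That of Col4a6 exceeded that of Col4a5 by 0.30. In collagen V Col5a2 moved -0.28 relative to Col5a1, in collagen VIII Col8a2 moved -1.68 relative to Col8a1, and in collagen IX Col9a1 moved -0.96 and Col9a3 0.49 relative to Col9a2. Col11a2 and Col11a1 differed by 0.42 with overlap (exact permutation p = 0.5, adjusted 0.563).

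**Figure D3:**
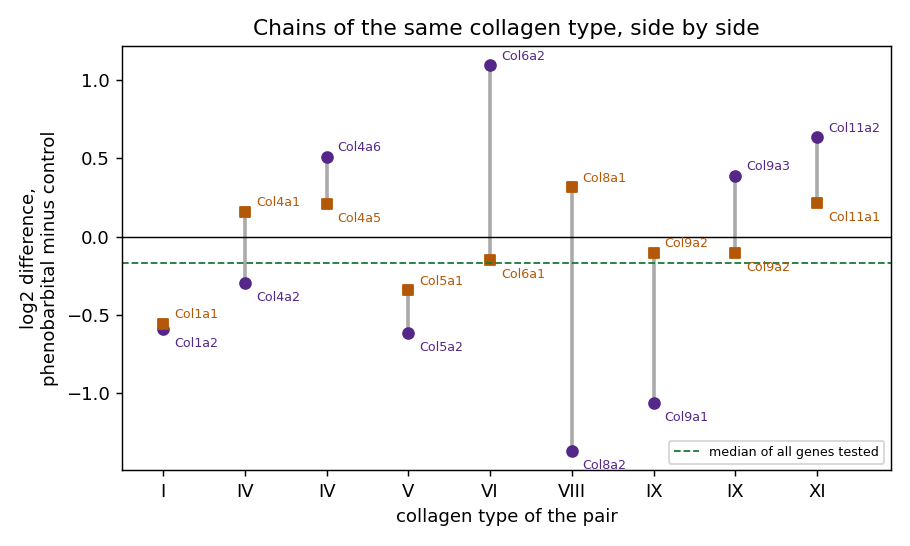
Log2 difference between phenobarbital and control for both chains of 9 pairs of the same collagen type, joined by a line, with the first chain as a circle and the second as a square. The 2 chains of collagen I lie together at -0.59 and -0.56, while those of collagen VI are apart at 1.09 and -0.15.

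Some enzymes and helpers that make collagen rose and others fell. Of 31 tested synthesis and processing genes out of 33, 4 rose, 3 fell and 24 did not pass (limma, adjusted p), against 6.26% higher and 11.0% lower over all names. The share that fell was near that of all names, and the median difference was -0.17, that of all names to 2 decimals. The 3 that fell include Loxl2, whose probes disagree in sign. With the mean over the probes of a gene 4 rose and 2 fell, and with the second brightest probe 2 rose and 2 fell. Among those acting inside the cell, Colgalt1, which adds galactose to hydroxylysine, had 1.78, 1.69 and 1.84 on the phenobarbital arrays, against 0.65, 0.71 and 0.57 on the control arrays. The groups lay far apart, and Colgalt1 rose by 1.13 ± 0.10 (adjusted p = 0.00336).

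P4hb, the protein disulphide isomerase subunit of prolyl 4-hydroxylase, had 3.12, 3.15 and 3.22 on the phenobarbital arrays, against 2.35, 2.49 and 2.28 on the control arrays. It rose by 0.79 ± 0.10 (limma, adjusted p = 0.00874). Plod1, a lysyl hydroxylase, rose by 1.40 ± 0.23 (0.0163) on its brighter probe and had 0.24 on the other (not called). Serpinh1, the collagen chaperone HSP47, had 4.07, 4.03 and 3.98 on the phenobarbital arrays, against 4.28, 4.33 and 4.19 on the control arrays. These did not overlap, but the difference of -0.24 ± 0.10 did not pass (0.129).

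Outside the cell, the lysyl oxidase genes, whose products crosslink fibres, split. Loxl3 fell by 0.71 ± 0.12 (limma, adjusted p = 0.0168). Chosen for the counts after their values were seen were Loxl1, Pcolce and Loxl2. Loxl1 rose by 0.90 ± 0.16 (0.0191), while its other probe had 0.94 without a call. Pcolce, the enhancer of the protease that trims fibrillar procollagen, fell by 0.88 ± 0.16 (0.0220). Loxl2 had -0.49 ± 0.12 on its brightest probe (0.0390), while its other probes had 0.16 and 0.22 and did not pass, so no direction can be given for it.

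Of 12 tested receptor and linker genes out of 14, 5 fell, 1 rose and 6 did not pass (limma, adjusted p), against 11.0% and 6.26% of all names, with a median of -0.25. The 5 include Ddr2 and Nid1, whose probes disagree in sign. With the mean over the probes of a gene 3 fell and 1 rose, and with the second brightest probe 2 fell and 1 rose. Nidogens link the laminin and collagen IV networks, and Nid2 and the brightest probe of Nid1 were lower with phenobarbital. Nid2 had 0.22, -0.03 and 0.03 on the phenobarbital arrays, against 0.90, 0.77 and 0.77 on the control arrays, and fell by 0.74 ± 0.11 (adjusted p = 0.0128). Nid1, named for the count after its value was seen, had -0.53 ± 0.13 on its brightest probe (0.0391). Its other probes had -0.48 and 0.33 and did not pass, so no direction can be given for it.

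Ddr2, a receptor kinase for fibrillar collagen, had opposite values on its probes: the brighter fell by 0.95 ± 0.16 (limma, adjusted p = 0.0176) and the dimmer had 1.56 (0.00768 over all probes), so no direction can be given for it. Gp6, the collagen receptor of platelets, fell by 1.26 ± 0.20 (0.0146). The collagen-binding integrin gene Itga1, also named after its value was seen, fell by 1.199 ± 0.268 (0.0333), while its other probe had -0.29 without a call. Mrc2, an uptake receptor for collagen, rose by 1.22 ± 0.18 (0.0122), while its other probe had 0.40 without a call.

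Adgrg1, the receptor for collagen III on cortical progenitors, had 4.18, 4.27 and 3.87 on the phenobarbital arrays, against 4.34, 4.06 and 4.46 on the control arrays. The groups overlapped, the difference was -0.18 ± 0.16 and its 95% interval ran -0.56 to 0.20 (adjusted p = 0.453 by limma). Of 12 tested remodelling genes out of 15, Mmp15, a membrane-bound matrix metalloprotease, rose by 0.96 ± 0.15 (0.0147) and 11 did not pass, against 17.2% of all names called. None of the 12 fell past the threshold, and 3 had an unadjusted p below 0.05 in either direction, against 36.1% of all names.

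Marker lists of cells that deposit collagen, meningeal, mural and endothelial, had lower summed signals in the same samples. Of 16 markers of meninges and mural cells, none of which is a collagen, 4 fell, none rose and 12 did not pass (limma, adjusted p), and all 16 had negative differences with a median of -0.51. Over all names 11.0% fell and 68.3% had a negative difference. Their summed signal was 10.01 to 13.15 times the 75th percentile on the phenobarbital arrays, against 15.27 to 21.21 times on the control arrays. That sum is weighted towards Lum, which fell, and Dcn. The groups overlapped for Dcn, and its difference of -0.42 ± 0.50 did not pass (limma, adjusted p = 0.576). Of 11 endothelial markers 4 fell, 7 did not pass and none rose. Their differences were negative for 8 and positive for 3, namely Pecam1 (0.70, no overlap), Tek (0.71) and Tie1 (0.27), none of which passed. The list had a summed signal of 51.2 to 60.8 on the phenobarbital arrays, against 85.1 to 91.0 on the control arrays. Such a sum is weighted towards bright probes, here those of Egfl7 and Kdr. All of these markers were above background.

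The summed signal of the 10 fibrillar chains, 34.3 to 42.3 on the phenobarbital arrays against 52.2 to 62.4 on the control arrays, separated the groups. That sum is weighted towards the bright chains Col3a1 and Col1a2, which were both called lower on their own. The sums of the meningeal and mural markers and of the endothelial markers also separated the groups. The same held for some lists of cells that are not known for collagen. Neuronal markers summed to 152 to 184 on the phenobarbital arrays, against 241 to 270 on the control arrays, and neural progenitor markers to 335 to 388 on the phenobarbital arrays, against 429 to 482 on the control arrays. Red blood cell markers summed to 618 to 714 on the phenobarbital arrays, against 900.4 to 1249 on the control arrays. The synthesis genes summed to 260 to 281 on the phenobarbital arrays, against 303 to 336 on the control arrays. Microglial and macrophage markers overlapped, with sums of 8.40 to 10.88 on the phenobarbital arrays, against 7.76 to 10.15 on the control arrays. The sums of the receptor genes and of the remodelling genes overlapped as well. A lower sum was thus also found for some lists beyond the collagens and the cells that deposit them, but not for all. The sum of the 8 basement membrane chains was 19.1 to 21.7 on the phenobarbital arrays, against 22.9 to 23.6 on the control arrays. In RNA from a mixed culture, fewer cells of a type and less RNA per cell cannot be told apart, and the part of these cell types in the collagen differences was not tested.

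Of 7 tested cartilage and skeletal markers out of 11, 2 fell, none rose and 5 did not pass, while Matn1, Matn3, Runx2 and Sp7 were not above background on all arrays of either group. Their differences were negative for 4 and positive for 3. Their summed signal was 6.33 to 7.29 on the phenobarbital arrays, against 7.39 to 8.40 on the control arrays. That sum was weighted towards Sox9, the brightest of the 7, with mean scaled log2 signals of 2.32 with phenobarbital and 2.55 in controls. The groups overlapped for Sox9, and its difference of -0.23 ± 0.12 did not pass (limma, adjusted p = 0.216). Of 7 tested choroid plexus markers out of 8, 5 rose, 2 did not pass and none fell, with a summed signal of 11.8 to 22.9 on the phenobarbital arrays, against 1.98 to 4.19 on the control arrays. Of 10 neural progenitor markers 1 rose and 1 fell, of 9 neuronal markers 5 fell and none rose, of 7 red blood cell markers 4 fell and none rose, and of 7 microglial and macrophage markers 1 rose and 3 fell. For each of these lists the shares over all names are 6.26% higher and 11.0% lower. The choroid plexus list moved in the same direction as Col27a1 and Col6a2, and whether those chains came from that epithelium was not tested.

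**Figure D4:**
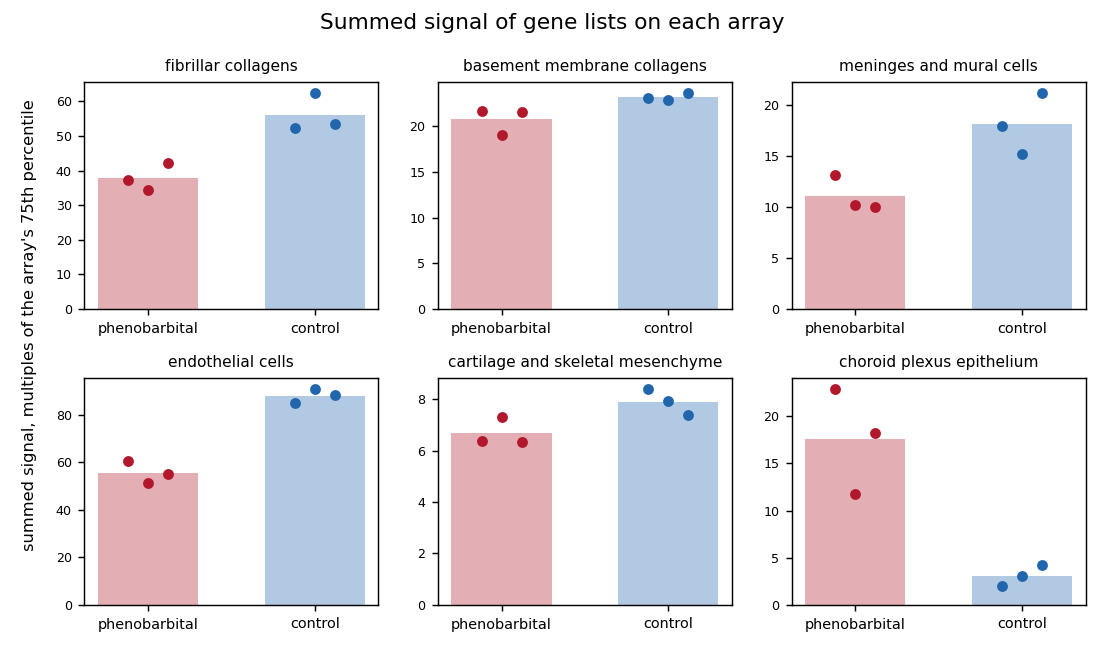
Summed signal on each array, in multiples of the array's 75th percentile, for the fibrillar and basement membrane collagens and 4 lists of cell type markers; points are arrays and bars are group means, with phenobarbital left of control. The choroid plexus markers are higher on all 3 phenobarbital arrays. Every other list shown is lower on them, including the basement membrane collagens and the cartilage and skeletal markers.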

How the data were processed

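RNA of 3 phenobarbital and 3 control samples was measured on 1-colour Agilent arrays. The deposited intensity values are processed signals from Agilent Feature Extraction 10.7.3.1, background-subtracted and detrended, per the file headers (10.7 in the submitters' processing notes). The deposited log2 value table matched the scanner files after 1 factor per array and centring per probe, and is an alternative here; its column medians were -0.02, -0.09 and -0.08 for phenobarbital and 0.08, 0.10 and 0.09 for control arrays, and the factor's basis is unknown.

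The log2 processed signal was scaled to each array's 75th percentile (1803 to 1862 on phenobarbital arrays, 1116 to 1291 on control arrays). Outlier spots (98 to 198 per array) were left out and spots of a probe averaged. Of 55681 probes, 26582 were named by RefSeq accession, and 34673 were well above background on every array of a group with 2 or more values in each. The brightest probe stood for a gene. limma 3.58.1 in R 4.3.3 fitted 25304 names on all 6 arrays without covariates, with Benjamini-Hochberg adjustment over all names and a threshold of 0.05. The fit was also run on simulated data with independent arrays, which hold no slide effect and cannot test for one. Alternatives changed background correction, scaling, filter, probe choice, variance prior, blocks or samples. The number of arrays limits the precision.

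Members, lists and chain pairs were chosen with earlier results of these data known. Values per array are given for called collagens, for those whose probes differ in sign or call, and for Col1a1, Col1a2, Col3a1, Col4a1, Col4a2 and Col18a1; of each pathway list up to 4 called genes by smallest p are named, plus Serpinh1, P4hb and Adgrg1. Outside this rule are Loxl1, Pcolce, Loxl2, Nid1 and Itga1, the endothelial markers named, Lum, Dcn and Sox9. So are the values per array of Col4a6, Col6a1, Col8a2, Col9a1 and Col26a1. All of these were chosen after their values were seen. Normexp (offset 50) used median spot signals.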

Additional observations from a re-analysis of the deposited data

How the results depend on the processing

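The 7 called collagens were 21.9% of the 32 tested, near the 17.2% of all names called. The median difference of the 32 was -0.14, against -0.17 for all names. The 7 kept their sign under all 21 alternatives. Collagens called, 7 in all, became 12 with normexp, 1 with no filter, 16 with array weights and 1 with the slide as a fixed block, which was Col9a1 (-1.10) and none of the 7, and 0 to 10 when one replicate was left out. With the slide as a random block the 7 stayed called. Of these, the fibrillar count of 5 became 3 with arrays scaled to the median, 3 with the percentile over detected probes, 0 with no filter and 0 with the slide block (0 to 5 leaving one out). The basement membrane count of 1 became 3 with normexp, and 2 with the percentile over detected probes, the mean over probes, the second brightest probe or array weights, and 0 with the slide block (0 to 1). The count of 1 among other collagens became 4 with normexp, 7 with array weights, 2 with probes above background on all arrays, the second probe, or trend and robust, and 0 with quantile normalization or no filter (0 to 4). The synthesis count of 7 became 4 with the second probe, 14 with array weights and 2 with the slide block (2 to 6), the receptor count of 6 became 3 and 1 with the second probe and slide block (0 to 6), and the remodelling count of 1 became 4 with normexp, 2 with the percentile or all-array filter, 3 with trend and robust, 7 with array weights and 0 with the slide block (0 to 4). Calls over all names, 4363, became 2491 scaled to the median, 2716 with the percentile over detected probes, 1565 with no filter, 9446 with array weights and 759 with the slide block (883 to 4604).

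Median differences moved to -0.21 for fibrillar chains with the percentile over detected probes (-0.39 to -0.29 leaving one out), to -0.054, 0.0028 and 0.030 for basement membrane chains with quantile normalization, the mean over probes and the second probe (-0.22 to -0.10), and to -0.20 for the others with normexp (-0.15 to -0.05). Signs turned for Col4a4 to 0.56 and 1.25 and for Ddr2 to 0.31 and 1.56 with the mean over probes and the second probe, and for Loxl2 to 0.16 with the second probe; these genes' probes disagree, and the cause was not tested. Differences not called in either setting changed sign for Col8a1 (-0.13), Col6a1 (0.02) and Col9a3 (-0.27) with normexp, Col2a1 (0.03) and Adgrg1 (0.0047) with quantile normalization, Col9a2 (0.11) and Col25a1 (-0.10) with array weights, Col9a2 (0.09), Col2a1 (0.07) and Col25a1 (-0.26) with the slide as a fixed block, and for Col2a1, Col9a2, Col25a1 and Col6a1 when 1 replicate was left out.

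With the replicate number as a block, 290 names were called, and 0 fibrillar, 0 basement membrane, 0 other, 0 synthesis, 0 receptor and 0 remodelling genes. Deviations of same-numbered arrays correlated at 0.077, -0.16 and -0.341, so the numbers were not taken to pair the samples. Dim probes such as those of Col9a3 limit what can be read from their differences.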
